A study of Mus musculus with 6 samples.

Results

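The genes described here are 34 that respond to low oxygen or carry out glycolysis, in tumours of B16F10, an established mouse melanoma cell line. They are defined by a list of names and not by a threshold on their values, though the list was drawn up with earlier results of these data known. All 34 were found among the 44679 genes of the deposited tables. They fall into 4 HIF alpha subunits and oxygen sensors, 11 other targets of HIF, 4 transporters of glucose and lactate, and 17 glycolytic enzymes. The oxygen sensors Egln1 and Egln3 are also HIF targets and were counted in both of the first groups. The study measured total RNA from 3 tumours of untreated mice and 3 tumours of mice treated with vorinostat, a drug that blocks histone deacetylases. The label of the untreated group is treatment none, and no vehicle is named. The sources used here do not give dose, duration, or the strain, age and sex of the mice. All 6 tumours were grown from the same cell line, and RNA was taken from tumour cell pellets. The labels do not say that each tumour came from its own mouse, so p-values speak only for these 6 samples, whose spread may in part be technical.

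Hypoxia inducible factors, or HIFs, are transcription factors made of an oxygen-labile alpha subunit, such as the products of Hif1a and Epas1, and a stable beta subunit. In normal oxygen, prolyl hydroxylases of the EGLN family mark the alpha subunit for destruction, so much of the control acts on the protein and not on the mRNA. When oxygen is low, the dimer binds hypoxia response elements and raises genes of glucose uptake, glycolysis, lactate export, acid balance and vessel growth. Melanoma cells use glycolysis heavily, and in tumours parts far from vessels are often poor in oxygen.

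The libraries held 11.32 to 28.86 M reads assigned to genes, but only 2.98 to 7.37 M of these fell on nuclear protein-coding genes. Genes with any reads numbered 21595 to 22856 in untreated and 24618 to 28510 in vorinostat libraries. Mitochondrial ribosomal RNA took 13.27% to 25.3% of the reads in 5 libraries and 55.86% in untreated tumour 3, which stood apart. Levels are therefore given as CPM, reads of a gene relative to the TMM-scaled size of its library, in which 3 reads were worth 0.114 to 0.285 CPM. The summed level of 7 melanocyte lineage markers, all of them detected, was 5769 to 7376 CPM in untreated and 5735 to 7978 CPM in vorinostat tumours. Markers of host cells were low, with 93.3 to 310 CPM against 151 to 215 CPM for 8 macrophage genes and 3.35 to 12.1 CPM against 4.43 to 12.5 CPM for 7 endothelial genes. Fewer cells of a type and less RNA per cell cannot be told apart in such bulk samples.

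Of the hypoxia and glycolysis genes, Adm had the highest and Epas1 the lowest log2 fold change under vorinostat, and none passed the adjusted threshold. With edgeR's quasi-likelihood test none of the 34 had an adjusted p under 0.05, against 0 of 14776 genes tested (0%). The smallest adjusted p over all genes was 0.316, so the lack of a call does not show that levels were alike. At an unadjusted p under 0.05 there were 2 of the 34, Adm with a higher and Epas1 with a lower value under vorinostat, beside 6.27% of all genes in either direction (3.36% higher and 2.92% lower). Neither DESeq2 nor limma-voom called a member either. All 34 passed the filter on low counts, the fewest reads of a member in any library being 30, for Ankrd37. The log2 fold change of vorinostat over untreated was above 0 for 25 of the 34 and below 0 for 9, with 54.1% of all genes above 0. Its median was 0.12 over the 34 and 0.03 over all genes, and it ran from -0.81 for Epas1 to 0.51 for Adm. The 95% intervals of the log2 fold changes of all members lay within -1.34 and 1.06. The fit estimates spread partly from other genes, so these intervals are not each gene's own spread among the tumours. CPM ranges of the 3 untreated and the 3 vorinostat tumours did not overlap for 8 of the 34 genes (23.5%), beside 12.1% of all genes. Of these, 3 stood higher under vorinostat (Adm, Ndrg1 and Hk1) and 5 lower (Epas1, Egln3, P4ha1, Ankrd37 and Pdk1).

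**Figure D1:**
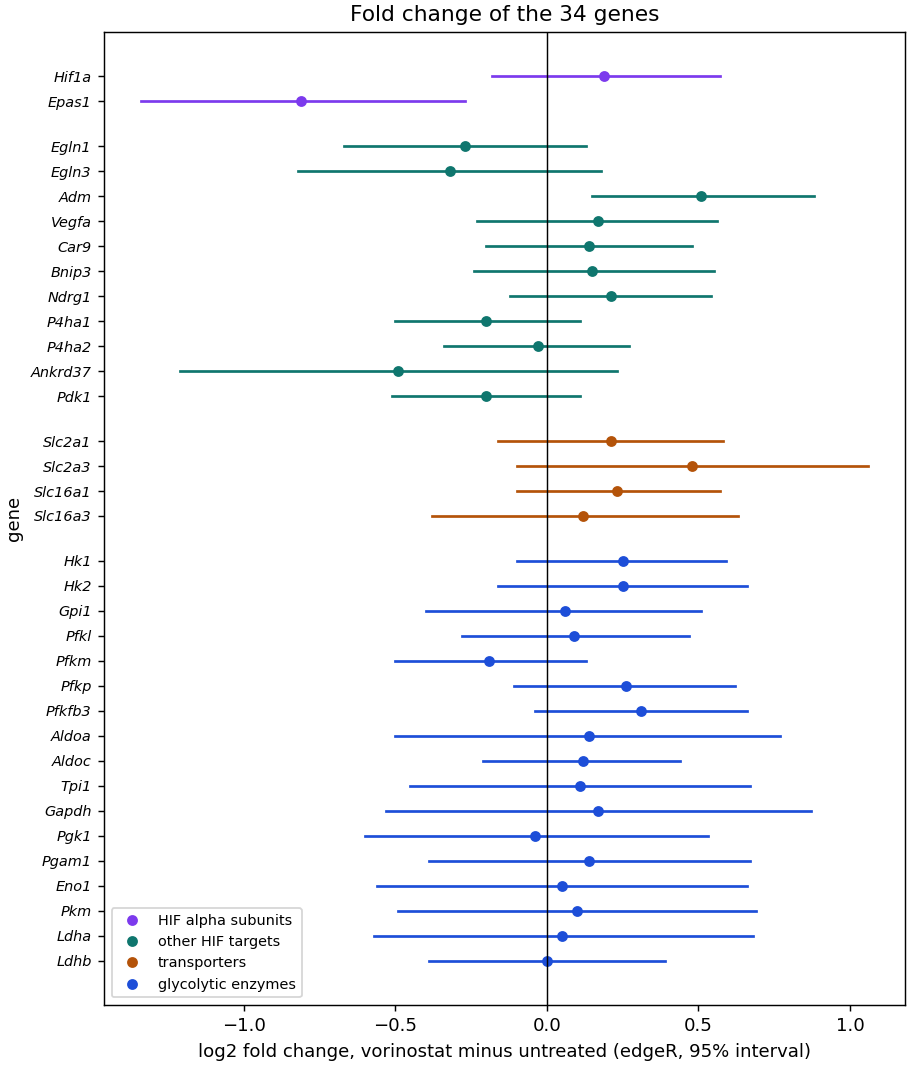
Log2 fold change of vorinostat over untreated tumours for the 34 genes by role, with points for the estimates and bars for their 95% intervals. The points lie between -0.81 (Epas1) and 0.51 (Adm), and none passed the adjusted threshold.

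Among the HIF alpha subunits, Hif1a made up most of the mRNA and Epas1 stood lower under vorinostat. Hif1a, which encodes the broadly expressed subunit HIF-1 alpha, stood at 109, 90.2 and 78.6 CPM in untreated tumours 1, 2 and 3. Under vorinostat its levels were 98.5, 110 and 110 CPM. The groups overlapped, since untreated tumour 1 reached the vorinostat level, and the log2 fold change was 0.19 with a standard error of 0.17. Epas1 (ENSMUSG00000024140, chr17:86753700-86833410, plus strand) encodes HIF-2 alpha, best known from endothelium and other stromal cells. It was measured at 10.3, 8.25 and 11 CPM in untreated tumours and at 4.55, 4.69 and 7.98 CPM in vorinostat tumours. Every vorinostat tumour lay below every untreated tumour, with vorinostat tumour 3 close to untreated tumour 2. In edgeR the log2 fold change was -0.81 with a standard error of 0.24, or 0.571-fold, and the unadjusted p of 0.00661 became an adjusted p of 0.743. Shares of the sum of Hif1a, Epas1 and Hif3a were taken in TPM, the deposited level scaled for transcript length and library size. The share of Epas1 was 7.87% ± 1.41 in untreated and 4.11% ± 1.22 in vorinostat tumours (SD, n = 3 each). Hif1a held 91.3% and 91.7%. Hif3a held 0.787% ± 1.13 and 4.2% ± 3.26, but from only 2 to 20 reads per library, so this part of the sum is unstable.

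Markers of fibroblasts and pericytes, endothelium and macrophages are given beside the Epas1 levels. The 7 fibroblast and pericyte markers, none at 0 in all libraries, summed to 24.8, 15.5 and 33.5 CPM in untreated tumours 1 to 3. Under vorinostat they summed to 10.1, 13.9 and 18.7 CPM. The markers did not all move alike. Mean CPM in untreated and vorinostat tumours was 5.96 and 3.34 for Col1a1, 4.95 and 2.75 for Col1a2, and 6.52 and 1.25 for Col3a1. It was 1.14 and 0.327 for Dcn, 3.04 and 2.92 for Pdgfrb, and 0.778 and 0.672 for Rgs5. Pdgfra was higher under vorinostat, at 2.22 and 2.98 CPM. The 7 endothelial markers summed to 3.85, 3.35 and 12.1 CPM in untreated and to 4.43, 4.64 and 12.5 CPM in vorinostat tumours, with Tek and Emcn under 1 CPM throughout. The fibroblast sums overlapped between the groups only through vorinostat tumour 3, and the endothelial sums were high in tumour 3 of each group. The 8 macrophage markers summed to 157, 93.3 and 310 CPM in untreated and to 206, 215 and 151 CPM in vorinostat tumours, with overlap. The part of these host cells in the Epas1 difference was not tested.

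Both oxygen sensors had log2 fold changes below 0, though neither passed the test. Egln1 encodes the main prolyl hydroxylase that marks HIF alpha in normal oxygen, and it stood at 86.9, 70.7 and 108 CPM in untreated tumours. With vorinostat it stood at 78.0, 69.6 and 72.8 CPM. Only untreated tumours 1 and 3 lay above all vorinostat tumours, and the log2 fold change was -0.27 with a standard error of 0.18. Egln3, an inducible member of the same family, was at 4.69, 5.46 and 6.18 CPM without the drug. Levels of Egln3 under the drug were 4.04, 4.37 and 4.66 CPM. Its groups just failed to overlap, the gap being between 4.66 and 4.69 CPM, and the log2 fold change was -0.32 with a standard error of 0.23. Egln1 held 66.6% to 74.3% of the summed TPM of Egln1, Egln2 and Egln3 in the 6 tumours.

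The 11 other HIF targets did not lean one way under vorinostat. Their log2 fold changes were above 0 for 5 (Adm, Vegfa, Car9, Bnip3 and Ndrg1) and below 0 for 6 (Egln1, Egln3, P4ha1, P4ha2, Ankrd37 and Pdk1), with a median of -0.03 and a range of -0.49 to 0.51. Groups did not overlap for 6 of the 11 (54.5%), with 2 higher and 4 lower under vorinostat, beside 6.53% and 5.53% of all genes. None of the 11 passed the adjusted threshold in edgeR, and Adm alone had an unadjusted p under 0.05.

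Adm (ENSMUSG00000030790, chr7:110627661-110629820, plus strand) encodes adrenomedullin, a secreted peptide that widens vessels, and had the highest log2 fold change of the 34 genes. Its level was 57.7, 42.8 and 47.4 CPM in untreated tumours 1, 2 and 3. In vorinostat tumours 1, 2 and 3 it was 77.9, 67.2 and 66.3 CPM. All 3 vorinostat tumours lay above the highest untreated tumour. The log2 fold change was 0.51 with a standard error of 0.17, or 1.43-fold with a 95% interval of 1.11 to 1.84, and edgeR's unadjusted p of 0.00973 became an adjusted p of 0.743. Leaving out each tumour in turn gave log2 fold changes of 0.40 to 0.61, with adjusted p between 0.338 and 1.0.

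Ndrg1, a gene of stress response and differentiation that hypoxia raises in many cells, also had groups that did not overlap. It stood at 72.0, 69.4 and 64.9 CPM in untreated tumours and at 86.7, 75.5 and 76.4 CPM in vorinostat tumours. The lowest vorinostat tumour was close to the highest untreated one, and the log2 fold change was 0.21 with a standard error of 0.15. Vegfa, the main growth factor for blood vessels, was at 111, 96.0 and 133 CPM without and 141, 115 and 126 CPM with the drug, so that the groups overlapped. Car9 encodes carbonic anhydrase 9, a surface enzyme of acid balance that is widely used as a marker of hypoxia. It stood at 72.0, 74.8 and 69.5 CPM in untreated tumours and at 89.6, 76.0 and 73.0 CPM in vorinostat tumours, where tumour 1 was the high library and tumour 3 lay within the untreated range. Bnip3, a mitochondrial protein that promotes mitophagy, was the most abundant of these targets at 179, 159 and 143 CPM and, with vorinostat, 198, 175 and 162 CPM. The log2 fold changes of Vegfa, Car9 and Bnip3 were 0.17, 0.14 and 0.15, each with a 95% interval that held 0.

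P4ha1, P4ha2, Pdk1 and Ankrd37 had log2 fold changes below 0, each with a 95% interval that held 0. P4ha1 encodes a catalytic subunit of the collagen prolyl hydroxylase, and it stood at 49.1, 49.1 and 45.9 CPM in untreated tumours. In vorinostat tumours P4ha1 stood at 44.2, 42.3 and 39.1 CPM. These groups did not overlap, but the log2 fold change was small, at -0.20 with a standard error of 0.14. The related subunit P4ha2 showed no such order, with 30.2, 34.6 and 29.3 against 29.1, 30.5 and 32.6 CPM and a log2 fold change of -0.03. Pdk1, a kinase that shuts off pyruvate dehydrogenase and so keeps pyruvate out of the mitochondria, was at 60.4, 56.9 and 62.7 CPM in untreated tumours. The vorinostat tumours had 54.5, 51.6 and 50.7 CPM of Pdk1, all below the untreated ones, and the log2 fold change was -0.20 with a standard error of 0.14. Ankrd37, a small ankyrin repeat protein, was at 3.2, 3.12 and 4.76 CPM and, with vorinostat, at 2.93, 2.21 and 2.69 CPM. Its log2 fold change of -0.49 had a standard error of 0.33. By gene start and end, Ankrd37 overlaps Ufsp2 on the opposite strand, a gene with 360% of its reads over the 6 libraries. Whether their exons overlap was not checked, and whether the counting used strand is not stated. The level of Ankrd37 may therefore be uncertain.

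**Figure D2:**
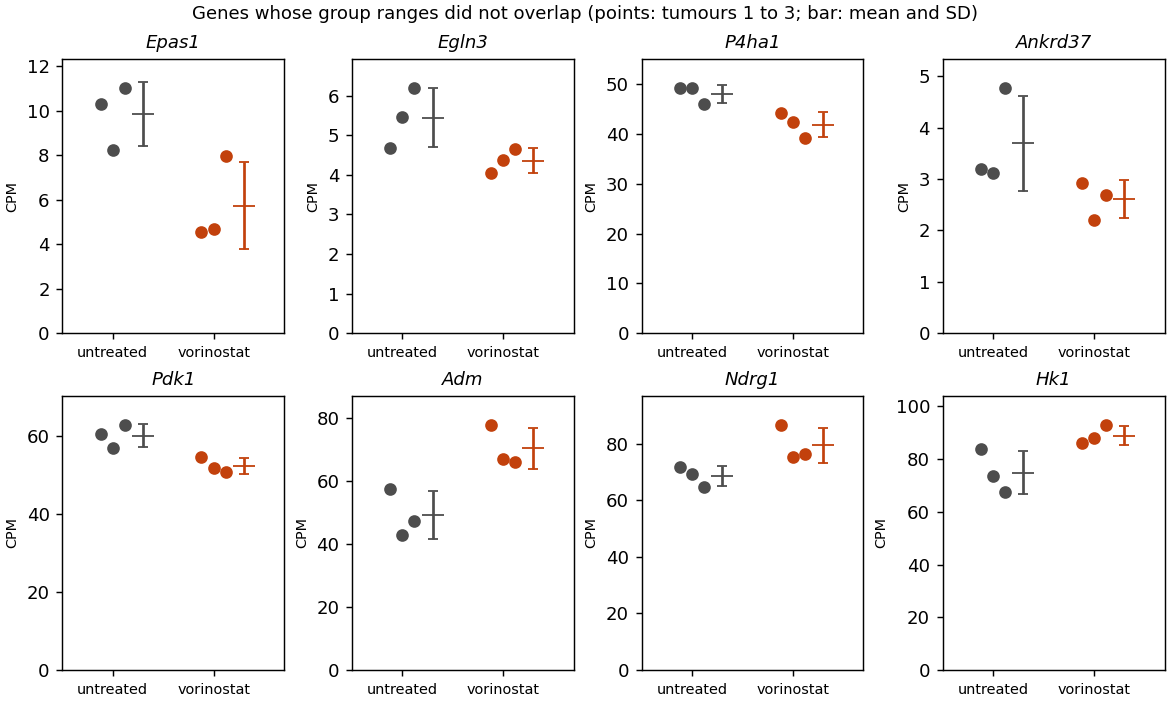
CPM in each tumour for the 8 genes whose groups did not overlap, with a point for each of 3 untreated and 3 vorinostat tumours and bars for each group's mean and SD (n = 3), each panel on its own axis from 0. Adm shows the clearest gap above and Epas1 the lowest levels under vorinostat relative to untreated, while Egln3 is separated by 4.66 against 4.69 CPM only.

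Sequences before the starts of 4 of the genes are shown as examples: Adm stood higher, P4ha1 and Pdk1 lower, and the glycolytic enzyme Pgk1 about level. Each is the 250 bases before the gene's start, read 5′ to 3′ on the gene's strand, from RefSeq's annotation of GRCm38.p6. Capitals mark the core of the hypoxia response element, searched as ACGTG or GCGTG on both strands, so that matches on the other strand read CACGT or CACGC.
Adm (chr7:110627407-110627656, plus strand): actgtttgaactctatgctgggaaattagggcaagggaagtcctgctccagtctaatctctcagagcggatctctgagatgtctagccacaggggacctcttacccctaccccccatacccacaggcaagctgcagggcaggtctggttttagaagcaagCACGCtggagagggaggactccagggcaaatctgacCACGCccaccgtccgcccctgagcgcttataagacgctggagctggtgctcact
P4ha1 (chr10:59323046-59323295, plus strand): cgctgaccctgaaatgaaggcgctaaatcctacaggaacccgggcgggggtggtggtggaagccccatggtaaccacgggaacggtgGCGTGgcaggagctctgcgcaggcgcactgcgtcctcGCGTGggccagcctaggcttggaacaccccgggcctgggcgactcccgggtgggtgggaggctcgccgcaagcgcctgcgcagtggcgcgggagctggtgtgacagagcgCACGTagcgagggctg
Pdk1 (chr2:71872974-71873223, plus strand): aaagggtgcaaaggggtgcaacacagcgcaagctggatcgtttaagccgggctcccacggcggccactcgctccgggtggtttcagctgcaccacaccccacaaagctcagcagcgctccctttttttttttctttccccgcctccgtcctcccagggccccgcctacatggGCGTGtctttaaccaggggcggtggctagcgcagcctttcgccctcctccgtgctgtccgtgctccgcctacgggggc
Pgk1 (chrX:106186850-106187099, plus strand): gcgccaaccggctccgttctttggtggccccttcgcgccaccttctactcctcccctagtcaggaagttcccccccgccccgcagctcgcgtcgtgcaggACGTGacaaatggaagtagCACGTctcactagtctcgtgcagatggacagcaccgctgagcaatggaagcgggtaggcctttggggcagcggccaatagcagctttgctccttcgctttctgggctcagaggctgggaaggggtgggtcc
The core is found 2 times before Adm, 3 times before P4ha1, 1 time before Pdk1 and 2 times before Pgk1. Its relation to the fold changes was not tested.

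Windows of 300 bases around the start, 250 before and 50 after, were on hand for 31 of the 34 genes, all but Epas1, Ndrg1 and Slc2a3. At least 1 window held the core in 29 of the 31 genes (93.5%), beside 46.7% of the 27025 genes of the table. By role, it was found in 15 of 17 glycolytic enzymes (88.2%) and in 10 of 10 other HIF targets with a window (100%). Counted over windows, since some genes have several starts, the shares were 82.2% of 45 and 43.8% of 32851. The form ACGTG alone was present in 23 of the 31 genes (74.2%), against 21.8% of all genes. CACGTG, which contains ACGTG and is bound by other factors such as MYC, was present in 6 (19.4%), against 8.09%. Both forms of the core contain CG, and the members were not matched to the other genes for base composition, expression or windows per gene. The higher shares are therefore no measure of enrichment for hypoxia response elements. These matches describe the sequence and were not tested for binding.

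The 4 transporters had log2 fold changes above 0, from 0.12 to 0.48 with a median of 0.22, and overlapping groups in each case. Slc2a1, the main glucose transporter of most tumour cells, stood at 78.0, 69.0 and 58.5 CPM in untreated and 88.4, 74.1 and 75.4 CPM in vorinostat tumours. Untreated tumour 1 lay above vorinostat tumours 2 and 3, and the log2 fold change was 0.21 with a standard error of 0.17. Slc2a3, a glucose transporter of high affinity, was far lower, at 6.1, 3.4 and 6.18 CPM against 5.86, 7.63 and 8.43 CPM. Its log2 fold change of 0.48 had a standard error of 0.26, and untreated tumour 2 was the low library. Stretches of up to 195 bases of Slc2a3 are at least 95% identical to transcripts of other genes with more reads, such as Luc7l2, so its reads are uncertain. Slc16a1, which encodes the lactate transporter MCT1, was at 29.4, 29.5 and 27.5 CPM against 37.6, 36.0 and 27.9 CPM. Vorinostat tumours 1 and 2 stood above the others, and tumour 3 at the untreated level. Slc16a3, which encodes the lactate exporter MCT4, varied most among tumours of a group, with 47.8, 61.3 and 32.5 CPM against 57.5, 57.2 and 39.6 CPM. In TPM, Slc16a3 exceeded Slc16a1 in each tumour and made up 72.3% to 85.5% of Slc16a1, Slc16a3 and Slc16a7 together.

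The 17 glycolytic enzymes had small log2 fold changes, none past the threshold. Most lay above 0, but not when untreated tumour 3 alone was left out. The log2 fold changes were above 0 for 15 and below 0 for 2 (Pfkm and Pgk1), with a median of 0.11 and a range of -0.19 to 0.31. Beside this, 54.1% of all genes were above 0. Of the 445 genes with a mean of at least 100 CPM, 153 were above 0, with a median of -0.08. The smallest unadjusted p among the enzymes in edgeR was 0.0796, for Pfkfb3. The 95% intervals of the enzymes all held 0, and their outermost ends were -0.60 (Pgk1) and 0.87 (Gapdh). Only Hk1 had groups that did not overlap, 1 of 17 (5.88%), beside 12.1% of all genes and 5.62% of genes with a mean of at least 100 CPM. Without untreated tumour 3 the count above 0 was 5 of 17 and the median -0.01. With tumour 3 of both groups left out, the count was 15 of 17 and the median 0.11.

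The hexokinases and the regulator Pfkfb3 had the higher log2 fold changes among the enzymes, together with Pfkp. Hk1 encodes a hexokinase of most tissues, and it stood at 83.7, 73.4 and 67.6 CPM in untreated and 86.0, 87.9 and 92.9 CPM in vorinostat tumours. The gap between the groups was narrow, and the log2 fold change was 0.25 with a standard error of 0.16. Hk2, the hexokinase typical of tumours, was at 202, 160 and 149 CPM and, with vorinostat, at 199, 200 and 209 CPM. Untreated tumour 1 lay within the vorinostat range, and the log2 fold change was 0.25 with a standard error of 0.19. Pfkfb3 makes fructose 2,6-bisphosphate, the activator of phosphofructokinase, and had 19.1, 15.2 and 14.0 CPM against 20.5, 18.1 and 21.6 CPM. Its log2 fold change of 0.31 was the highest among the enzymes, with a standard error of 0.16 and an adjusted p of 0.743 in edgeR. The phosphofructokinase subunits differed in sign: Pfkp was at 0.26, Pfkl at 0.09 and Pfkm at -0.19 on the log2 scale. Pfkm stood at 16.8, 15.8 and 17.2 CPM against 16.0, 14.5 and 13.1 CPM, with overlap through vorinostat tumour 1. By gene start and end, Pfkm overlaps Senp1, and Pfkp overlaps Pitrm1, on the opposite strand, with 148% and 33.7% of their reads. Overlap of exons was not checked.

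From aldolase to lactate dehydrogenase, the abundant enzymes had log2 fold changes close to 0. Gapdh, the most abundant, stood at 2451, 2493 and 2053 CPM in untreated and 3078, 2456 and 2348 CPM in vorinostat tumours. Vorinostat tumour 1 was the high library and untreated tumour 3 the low one, and the log2 fold change was 0.17 with a standard error of 0.32. Aldoa was at 1361, 1460 and 1054 CPM against 1617, 1429 and 1212 CPM. Pgk1, which makes the first ATP of the pathway, was at 739, 814 and 643 CPM against 800, 778 and 563 CPM, with a log2 fold change of -0.04 and a standard error of 0.26. In both of these genes tumour 3 was the lowest of its group. Pkm, which encodes pyruvate kinase M, was at 1304, 1268 and 1050 CPM against 1355, 1266 and 1265 CPM. Ldha, the lactate dehydrogenase subunit that favours lactate formation, was at 970, 1129 and 726 CPM against 1090, 1061 and 778 CPM, with a log2 fold change of 0.05 and a standard error of 0.29. The heart-type subunit Ldhb gave 143, 147 and 111 CPM against 146, 129 and 126 CPM and a log2 fold change of 0.00. Tumour 3 had the lowest Ldha and Ldhb level in each group. The other enzymes, namely Gpi1, Aldoc, Tpi1, Pgam1 and Eno1, had log2 fold changes from 0.05 (Eno1) to 0.14 (Pgam1), all with overlapping groups. Gapdh has many processed pseudogenes, and the reads given to its near copies equalled 0.781% to 2.13% of its own.

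Glycolytic enzymes and the other HIF targets were then set against each other within each tumour. The mean log2 CPM of the 17 enzymes was 7.95, 7.93 and 7.64 in untreated and 8.07, 7.98 and 7.82 in vorinostat tumours. That of the 11 other HIF targets was 5.39, 5.32 and 5.45 against 5.45, 5.30 and 5.33. The enzymes varied more among tumours than the targets did, with untreated tumour 3 the lowest for the enzymes and level with the highest for the targets. The difference, enzymes minus targets, was 2.56, 2.62 and 2.19 in untreated tumours and 2.62, 2.68 and 2.49 in vorinostat tumours. Its group means were 2.46 ± 0.24 and 2.59 ± 0.10 (SD, n = 3 each), 0.14 higher under vorinostat, with overlapping groups. The contrast thus differed by less than the pooled SD of 0.18 between tumours, and no p is given because the genes were chosen with results of these data known. Without untreated tumour 3 it was 0.00, without untreated tumour 2 it was 0.22, and without tumour 3 of both groups 0.06. Taken as the difference of medians over genes in place of means, it was -0.11. On the linear scale the enzymes summed to 7813 to 10209 CPM in untreated and 8715 to 11125 CPM in vorinostat tumours, 10.9 to 15.4 times the sum of the targets.

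**Figure D3:**
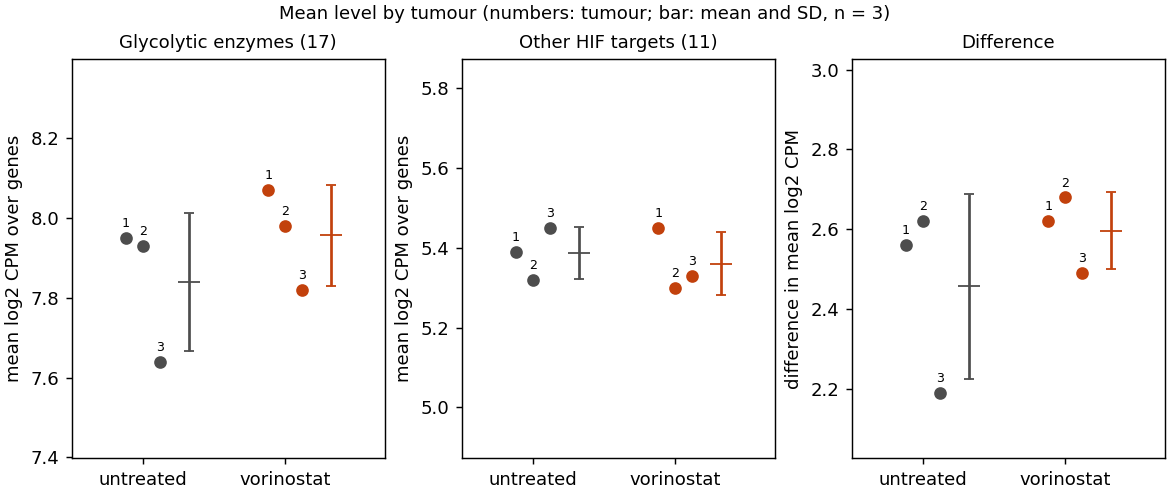
Mean log2 CPM of the 17 glycolytic enzymes and of the 11 other HIF targets, and their difference, in each tumour, with a numbered point per tumour and bars for each group's mean and SD (n = 3). The log2 axes do not start at 0. The differences run from 2.19 to 2.62 in untreated and from 2.49 to 2.68 in vorinostat tumours and overlap.

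Enzyme levels also varied among tumours of a group. Each of the 17 enzymes had its lowest CPM in tumour 3 of a group, 14 of them (82.4%) in untreated tumour 3 and 3 (17.6%) in vorinostat tumour 3. Over all genes tested, untreated tumour 3 was lowest for 26.7% and vorinostat tumour 3 for 18.3%. Among the 445 genes with a mean of at least 100 CPM, a level that 13 of the 17 enzymes reach, the shares were 24.3% and 38.9%. The other HIF targets showed no such lean, with 3 of 11 lowest in untreated tumour 3 and 4 of 11 highest there. Those 4 include both oxygen sensors, Egln1 at 108 CPM and Egln3 at 6.18 CPM.

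Several measures moved with the low enzyme levels of untreated tumour 3. It had the highest share of mitochondrial ribosomal RNA (55.86%) and the fewest nuclear protein-coding reads (2.98 M). Its melanocyte markers summed to 5769 CPM, against 7081 and 7376 CPM in untreated tumours 1 and 2, and were at 5735 CPM in vorinostat tumour 3. Its 8 macrophage markers, none at 0, summed to 310 CPM against 157 and 93.3 CPM in the other untreated tumours, and its 4 pan-leukocyte markers to 86.2 against 56.5 and 27.1 CPM. Vorinostat tumour 3 shared the low melanocyte sum but not the high macrophage sum, which was 151 CPM there, with 206 and 215 CPM in vorinostat tumours 1 and 2. The sample titles also give both of these tumours a G number of their own, 2 and 4, where the other tumours have 1 and 3, with no statement of what it stands for. As a share of nuclear protein-coding reads, the enzymes held 3.48%, 3.56% and 2.75% in untreated and 4.01%, 3.60% and 2.48% in vorinostat tumours, again lowest in tumour 3 of each group. On this scale vorinostat tumour 3, and not untreated tumour 3, was the lowest of all tumours. The TMM factor, which scales library size for CPM, was 0.3645 in untreated tumour 3 and 0.832 to 1.654 in the other libraries. The part of these measures in the enzyme levels was not tested, and no G number occurs in both groups, so G number and treatment cannot be told apart.

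**Figure D4:**
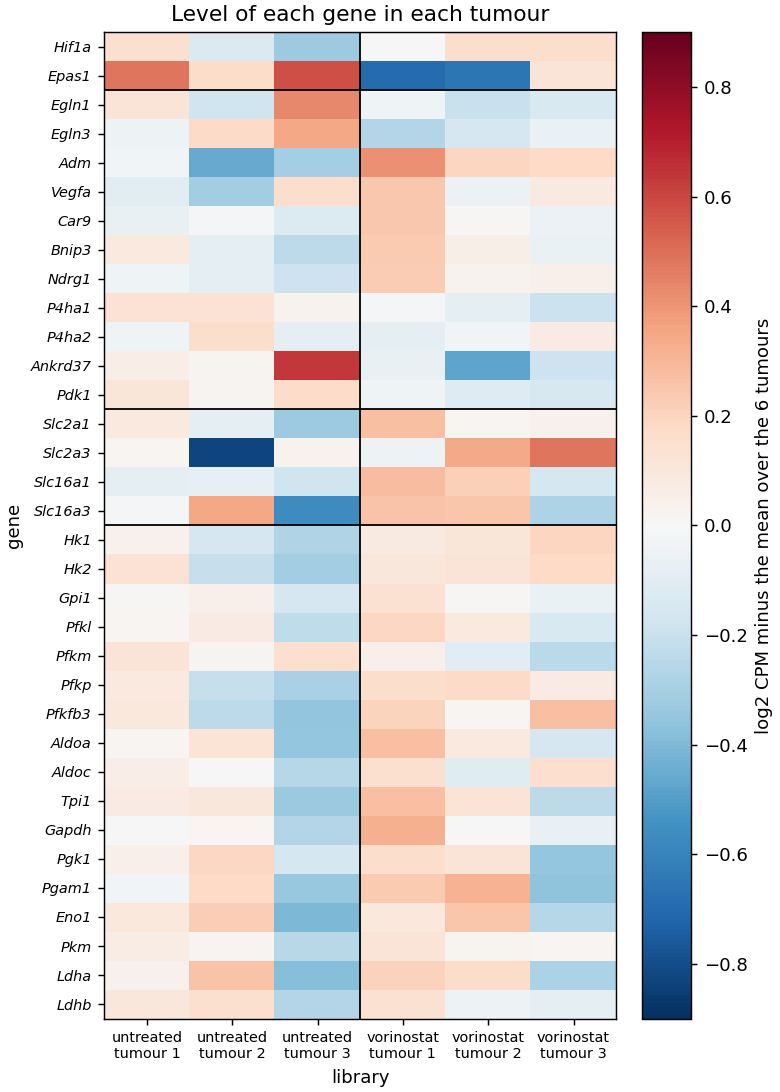
Log2 CPM of each of the 34 genes in each of the 6 tumours relative to the gene's mean over the tumours, by role. Most enzymes are low in untreated tumour 3, while the HIF targets and oxygen sensors form no common column pattern.

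Levels of different genes were compared per transcript length, in TPM, a scale on which all 34 genes were lowest in untreated tumour 3, the library with the most mitochondrial ribosomal RNA. Gapdh ranked first with a mean of 1383 TPM over the 6 tumours (404 to 2026), followed by Aldoa at 697 TPM and Ldha at 456 TPM, in this order in each of the 6 tumours. Pkm had a mean of 352 TPM, Eno1 301 TPM, Tpi1 296 TPM and Pgk1 286 TPM, and the last 3 changed places between tumours. With Gpi1 and Pgam1 these were the 9 most abundant of the 34 in every tumour, all of them glycolytic enzymes. Bnip3 at 78.5 TPM and Ldhb at 78.3 TPM came next and did not differ beyond their spread. Adm (32.9 TPM), Vegfa (28.5 TPM) and Car9 (27.5 TPM) led the remaining HIF targets, and their ranges over tumours overlapped. At the lower end were Egln3 at 1.19, Slc2a3 at 1.13 and Epas1 at 0.851 TPM, Epas1 being the lowest in 4 of 6 tumours.

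Shares of isozymes within a step, in TPM, described which form held most of the mRNA in these samples. Hk2 held 63.4%, 58.4% and 58.1% of hexokinase mRNA in untreated and 59.7%, 60.3% and 52.1% in vorinostat tumours, with Hk1 as most of the rest. Ldha held 82.9% to 86.6% of lactate dehydrogenase mRNA, Aldoa 98.9% to 99.2% of aldolase and Slc2a1 88.1% to 92.8% of the glucose transporters Slc2a1, Slc2a3 and Slc2a4. All of these shares overlapped between the groups. Pfkm was 7.86%, 7.60% and 10.2% of phosphofructokinase mRNA in untreated and 7.32%, 6.93% and 6.89% in vorinostat tumours, 2 sets that did not overlap. Gm26513, which overlaps Pfkm on the same strand at 99.71% identity over 345 bases, held reads equal to 0.907%, 1.76% and 1.66% of those of Pfkm in untreated tumours. In vorinostat tumours they equalled 3.96%, 2.53% and 14.4%, higher in each, and their part in the lower Pfkm values was not tested. Pfkl and Pfkp shared the rest about evenly, with 45.5% and 46.0% in untreated and 45.4% and 47.5% in vorinostat tumours. Eno1 was the main enolase at 95.7% to 98.2%, and Eno2, the form typical of neurons, reached at most 2.70%. The Eno2 share was 1.08%, 1.18% and 0.943% in untreated and 1.57%, 1.95% and 2.70% in vorinostat tumours, again without overlap. Among pyruvate dehydrogenase kinases, Pdk1 held 44.3% ± 5.53 and 38.6% ± 5.9 and Pdk3 50.7% ± 4.71 and 55.0% ± 3.7 in untreated and vorinostat tumours (SD, n = 3 each).

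Other genes of these pathways are given as counts and medians over whole lists, and the genes named from them are those of smallest unadjusted p. Of 35 further HIF targets 33 were tested, 16 with a log2 fold change above 0 and 17 below, with a median of -0.01, and 1 had an unadjusted p under 0.05. That gene, Tfrc, encodes the transferrin receptor of iron uptake. It stood at 155, 162 and 151 CPM in untreated and 106, 90.9 and 91.1 CPM in vorinostat tumours. The groups were far apart, with little spread in either, and the log2 fold change was -0.70 with a standard error of 0.16. Its unadjusted p of 0.00112 gave an adjusted p of 0.743 in edgeR, and DESeq2 called it with an adjusted p of 0.00307. Across all settings tried, the adjusted p of Tfrc lay between 0.00307 and 1.0.

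Of 21 further glycolysis genes 13 were tested, 10 above 0 and 3 below, with a median of 0.19 and 1 at an unadjusted p under 0.05. That was Eno2, with 6.1, 9.98 and 7.23 CPM in untreated and 12.4, 12.1 and 15.5 CPM in vorinostat tumours. All vorinostat tumours lay above all untreated ones, and the log2 fold change was 0.77 with a standard error of 0.21. The unadjusted p of 0.0032 gave an adjusted p of 0.743 in edgeR, which became 0.0408 without untreated tumour 2 and lay between 0.0408 and 1.0 over all settings. The 16 genes of HIF regulation had 6 above 0 and 10 below, and the 16 genes of pyruvate entry into mitochondria 11 above and 5 below, with medians of -0.01 and 0.09. The 10 pentose phosphate genes had 4 above and 6 below (median -0.01), and of 7 gluconeogenesis genes 3 were tested, 2 above 0 and 1 below. In these last 4 lists no gene had an unadjusted p under 0.05, and in none of the 6 lists did edgeR call a gene after adjustment.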

How the data were processed

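Total RNA of 6 tumours was sequenced as paired-end reads of 150 bases from a stranded kit, per the labels' protocols. FastQC, Trim Galore and Salmon, with build GRCm38, are named in the submitters' processing notes; the sources used here do not give versions, annotation or strand setting. The authors deposited 1 table per library with, per the file headers, an estimated count of reads, a TPM value, a length and an effective length per gene. The deposited TPM values were used for levels between genes, isozyme shares and 2 alternatives. Symbols came from GENCODE's GRCm38 annotation, which named 44118 of 44679 identifiers.

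Estimated counts were rounded and tested with edgeR 4.0.16 in R 4.3.3 (TMM, filterByExpr, quasi-likelihood test, treatment as the only term, two-sided, Benjamini-Hochberg over 14776 genes, threshold 0.05). The biological coefficient of variation was 0.314. Log2 CPM used a prior count of 0.5. Standard errors and 95% intervals came from the same fit, which estimates the spread of a gene partly from other genes. Standard errors, intervals and p-values therefore do not measure each gene's own spread among the tumours, which can be smaller or larger. Intervals speak only for these 6 samples, whose spread may in part be technical. Reads without molecular identifiers are not independent molecules. The code was tested on simulated data.

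Replicate numbers follow sample order and pair nothing. Alternatives were other scalings and filters, DESeq2 1.42.0, limma 3.58.1 (voom and on log2 TPM), gene subsets, pseudogene reads added, and each tumour left out; leaving out tumour 3 of both groups was added after the data were seen. Any of the 34 genes could be named, and from each other pathway list at most 4 genes of smallest unadjusted p. The 34 genes and all lists were chosen with earlier results of these data known.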

Additional observations from a re-analysis of the deposited data

How the results depend on the processing

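No member was called under any of the 19 other settings. The number at an unadjusted p under 0.05 was 1 with no filter, 0 in limma on log2(TPM + 1) and 0 on log2(TPM + 0.1), and 1 to 3 with each tumour left out, the 1 being without vorinostat tumour 1. The contrast of glycolytic enzymes with other HIF targets was -0.11 with medians over genes, and 0.00 to 0.22 with each tumour left out, the 0.00 being without untreated tumour 3. Enzymes with a log2 fold change above 0 numbered 5 of 17 without that tumour and 11 to 16 under the other settings. P4ha1 was at 0.01 on log2(TPM + 1), with an adjusted p of 0.861 in limma, and the cause was not tested. TPM fold changes are relative to the median of all genes, 0.26 with the added 1 and 0.51 with the added 0.1. Medians by role that moved were those of other HIF targets (0.23 and 0.07 on these scales, -0.11 with no filter), of glycolytic enzymes (0.32) and of HIF subunits and oxygen sensors (-0.09), the last 2 on log2(TPM + 1). Over all genes, 156 were called with no filter, 7 by DESeq2, 39 and 52 on the TPM scales, 121 without untreated tumour 2 and 1 without untreated tumour 3. No paired analysis was possible because replicate numbers follow sample order and no label pairs tumours across groups. Depth limited Ankrd37 most, with 30 to 84 reads per library.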
